A study of Mus musculus with 2 samples.

Results

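Cbx6 is the gene whose stretch of RNA held more separate anti-Rbfox1 clusters than any other in the series, 24, and it is described here from the 140 anti-Rbfox1 reads and 0 anti-Flag reads that fell on it, of 64820 and 569 reads in all. Its reads were those lying wholly on the minus strand of chromosome 15 between 79653500 and 79666000 (mm9, as all read positions here), a window of 12501 nt given for the gene. An mm9 annotation was not used here, so the assignment of the window to Cbx6 was not checked against one. Clusters are groups of reads of 1 strand whose neighbouring crosslinks are at most 20 nt apart. Joined within 50 nt, Cbx6 had 15 clusters and ranked 2, behind a stretch of 16. The gene was chosen because of its number of clusters in the anti-Rbfox1 library. Its cluster count, read count and rank are therefore given as a description, without a test.

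The data came from 2 iCLIP libraries of mouse forebrain neurons cultured for 14 days in vitro, 1 from an anti-Rbfox1 precipitation and 1 from an anti-Flag precipitation, the control, whose antibodies are directed at a short epitope tag. Both groups had the same treatment, in which cells were exposed on ice to ultraviolet light of 254 nm at 500 mJ/cm2 and opened for 1 min in a buffer with 0.1% Triton X-100, and the material that came out was used as the cytoplasmic fraction. The labels give no genotype and no number of cultures or animals behind a library. In iCLIP, light joins a protein to the RNA it touches and reverse transcription tends to stop there, so that the base just before a read's 5′ end marks where the protein sat and is called the crosslink position here. Forebrain cultures usually hold glia beside neurons, and reads cannot be traced to a cell type.

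Cbx6 is a chromobox protein of the Polycomb group. Chromobox proteins of this group are interchangeable subunits of Polycomb repressive complex 1. In it their chromodomain reads methylated lysine on histone H3 and helps to keep genes silent. Rbfox1 is a neuronal RNA-binding protein that recognises the RNA element UGCAUG. It is best known as a regulator of splicing in the nucleus, and cytoplasmic forms bind the 3′ untranslated regions (UTRs) of messenger RNAs. The series asked where Rbfox1 is bound in the cytoplasm.

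The sequences most relevant to this question are the GCAUG elements that the Cbx6 messenger RNA can offer to an Rbfox protein, written here as DNA. In the longest coding Cbx6 transcript of GENCODE M21 (GRCm38, minus strand of chromosome 15; Cbx6-203, 5806 nt, 5 exons), 1242 nt were coding and 4084 nt, or 70.3%, were 3′ UTR, all of it in a last exon of 5083 nt. The search for GCATG, and for TGCATG, which contains it, was made on the sense strand only, and positions count from 1 at the 5′ end of the transcript. GCATG occurred at 5 places, 1 in the 5′ UTR, 1 in the coding part and 3 in the 3′ UTR, and is in capitals in the lines that follow.
Position 71, 5′ UTR: ctggcaattctgGCATGaggagttacaag
Position 1130, coding: agttcagcgagaGCATGctccgtacccag
Position 2418, 3′ UTR: acttctggctgtGCATGtgtgtttgcccc
Position 3122, 3′ UTR: gcttgctcagaaGCATGggaagaggcaga
Position 4569, 3′ UTR: ggtggcaaggcaGCATGaagcactacagg

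Only the site at 2418 is preceded by T and so holds the full TGCATG. Among 1432 other genes with a 3′ UTR at least as long, 74.8% held at least 1 TGCATG in as many bases counted from the stop codon, and 75.6% held at least as many GCATG as Cbx6, where the median was 4. By these letters the Cbx6 3′ UTR was no richer in the element than most of these genes. The reads are on mm9 and the transcript on GRCm38, so no site was set against a crosslink, and the matches are a description of the sequence.

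All 140 Cbx6 reads lay in a stretch of 3998 nt, from 79654393 to 79658390. A stretch joins neighbouring clusters of 1 strand that are at most 1000 nt apart. Cbx6 is read toward lower coordinates, so the stretch lay toward the 3′ side of the window. The 7610 nt of the window on its 5′ side and the 893 nt on its 3′ side held 0 reads. For comparison of size alone, the stretch was 3998 nt long and the annotated 3′ UTR 4084 nt. Whether the 2 coincide was not determined, because the builds differ.

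The opposite strand of the window held 0 reads in both libraries. Within 100 kb on either side, the anti-Rbfox1 library held 6 further reads in 2 clusters, all on the minus strand, the nearest 35.8 kb away. Among the deposited reads, those on Cbx6 thus stood alone in their neighbourhood. The smallest anti-Rbfox1 stretches held 2 reads, so isolated single reads appear to be missing from the file. The counts of 0 on the opposite strand and in the rest of the window do not cover such reads. In the GRCm38 annotation a second gene, Npcd, overlaps Cbx6 on the same strand, with up to 291 nt of an exon inside the last exon of Cbx6. Reads in such shared bases could belong to either gene.

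In the anti-Rbfox1 library Cbx6 held 0.216% of the reads (exact Clopper-Pearson 95% interval 0.182 to 0.255). In the anti-Flag library it held 0 of 569 reads. A count of 0 there still permits a share as high as 0.527% by the limit of 3 counts, or 0.646% by the exact 95% interval. The nearest control read on that strand of chromosome 15 was 3.63 Mb away. The control reads formed only 233 clusters over all chromosomes, so this distance says little about Cbx6. At an equal share the control would have held 1.23 reads, so a difference between the antibodies was not detectable at this depth for Cbx6. Such limits and equal-share counts suppose that isolated control reads were kept in the file, which is not known. Intervals and limits cover counting error only, since amplified reads need not come from separate molecules, and with 1 library per antibody there is no replicate check.

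All 140 reads stood in the first of 11 blocks into which the lines of the anti-Rbfox1 file fall, where the chromosome order starts anew. The sources used here do not say what the blocks are. That block held 10007 reads, and Cbx6 took 1.40% of them (1.18 to 1.65). The first block of the control file held 305 reads, of which 60 overlapped anti-Rbfox1 reads, all in this same block, and 0 fell on Cbx6. The limit there was 0.984% by 3 counts, or 1.20% by the exact interval, which overlaps the interval of the anti-Rbfox1 share. At an equal share 4.27 reads would have been there. These values are given without a test, as the gene was chosen by its reads in this library. In the first block 0 reads shared a leftmost base and strand, whereas in the fourth block, with 48064 reads the largest, 16313 did. On the minus strand the leftmost base is the 3′ end of the read. The 140 reads are hence 140 different 3′ ends, and several may share a crosslink position.

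The reads marked 118 crosslink positions in 24 clusters, and no single position dominated. Of the positions, 99 (83.9%) held 1 read, 17 held 2, 1 held 3 and 1 held 4. The reads came from 41 tiles of the sequencing lane. They covered 1172 bases, 29.3% of the stretch.

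**Figure D1:**
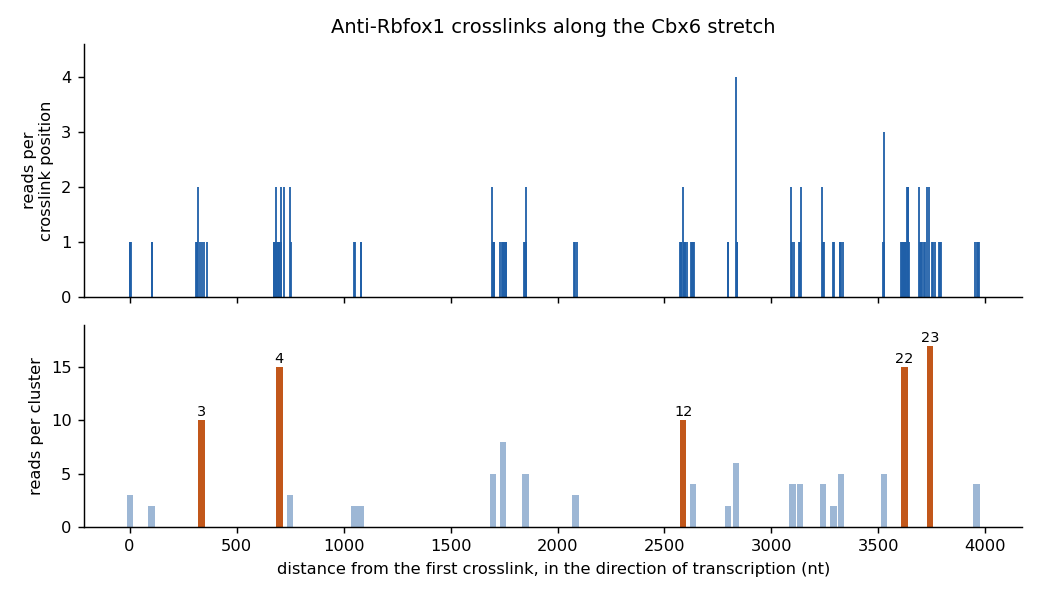
Anti-Rbfox1 crosslinks on Cbx6, plotted by distance in nt from the first crosslink in the direction of transcription. The upper panel gives reads per crosslink position (1 to 4) and the lower panel reads per cluster at each cluster's midpoint, where the 5 clusters of at least 10 reads are orange and numbered. Clusters 3 and 4 lie toward the 5′ end, 12 in the middle and 22 and 23 toward the 3′ end.

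Numbered 1 to 24 in the direction of transcription, the clusters ranged from 2 to 17 reads, with a median of 4. The deepest was cluster 23, near the 3′ end of the stretch, from 79654571 to 79654700. Its 17 reads marked 14 positions and were 12.1% of the gene's reads (7.24 to 18.7), and at 130 nt it was also the widest. Just before it, cluster 22, from 79654721 to 79654787, held 15 reads at 12 positions. These neighbours, 49 nt apart by their nearest crosslinks, made the last 500 nt the fullest part of the stretch.

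Cluster 4, from 79657646 to 79657714, equalled cluster 22 with 15 reads at 12 positions, but lay toward the 5′ end. Cluster 3, from 79657997 to 79658079, held 10 reads at 9 positions. Cluster 12, from 79655753 to 79655818, also held 10 reads at 9 positions and was the only cluster of this depth in the middle of the stretch. The 5 clusters together held 67 of the 140 reads (47.9%).

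The remaining 19 clusters were shallow. Of these, 17 held 2 to 5 reads, 59 in all, and 2 held 6 to 9. Cluster 9, from 79656599 to 79656659, had 8 reads, each at a position of its own. Cluster 15, from 79655506 to 79655558, had 6 reads at 3 positions and contained the position with most reads, 4. Cluster 21, from 79654827 to 79654867, had 5 reads, 3 of them at 1 position. These 2 were the clusters with a position of more than 2 reads, and neither was among the deepest.

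Crosslinks were present along the whole stretch but unevenly. In steps of 500 nt from the 5′ end, the number of reads was 15, 18, 4, 18, 3, 22, 19 and 41. The last step alone held 29.3% of the reads, while the sparsest, the third and the fifth, held 2.86% and 2.14%. The side nearer the 3′ end, from 1999 nt on, held 85 reads in 14 clusters and the side nearer the 5′ end 55 reads in 10.

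Between the last crosslink of a cluster and the first of the next, the 23 gaps had a median of 98 nt (95% interval of the median by order statistics 33 to 207), with an interquartile range of 30 to 215. Gaps of 20 nt or less cannot occur, by the way clusters were joined. Of the gaps, 9 were under 50 nt, so that many clusters came as close pairs, such as 4 and 5, 12 and 13, and 16 and 17. Gaps over 300 nt numbered 3, and the longest, 611 nt, lay between clusters 7 and 8. Clusters were 26 to 130 nt wide from the outer bases of their reads, with a median of 49.5 nt.

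Reads on Cbx6 had a median length of 26 nt (interquartile range 22 to 33, n = 140 reads of 1 library). Other reads of the library had a median of 28 nt (23 to 35), and other minus-strand reads of the first block 27 nt (22 to 35). Reads under 20 nt numbered 21 of the 140 on Cbx6, and made up 9.85% of all others and 11.6% of the other minus-strand reads of the block. By their median the reads on Cbx6 were thus slightly shorter in this library. The interval of that median, 24 to 28 nt, included both other medians, so a difference in median length was not resolved. No test was made because reads of 1 library are not replicates.

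**Figure D2:**
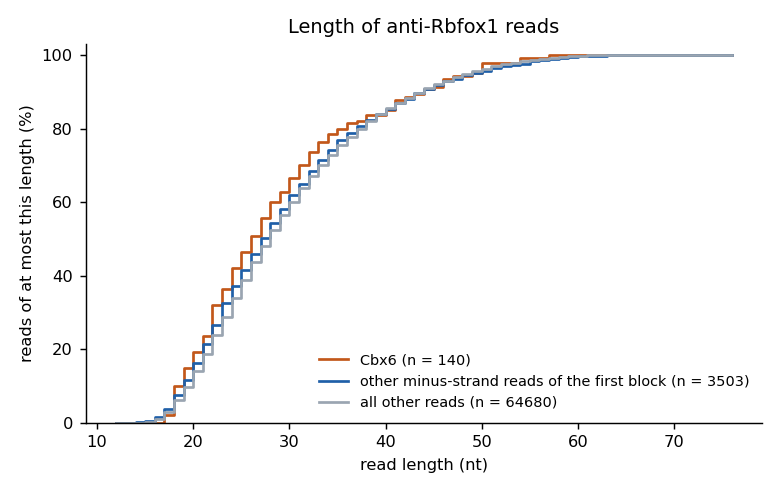
Cumulative share of anti-Rbfox1 reads (%) by read length (nt) for Cbx6, for the other minus-strand reads of the first block and for all other reads. The Cbx6 line runs to the left of the others over most lengths below 35 nt, with medians of 26, 27 and 28 nt.

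Cbx6 had a median of 4 and a mean of 5.83 reads per cluster, against a median of 3 and a mean of 6.40 over all clusters of the library. The anti-Rbfox1 clusters formed 7297 stretches, of which 5932 (81.3%) had 1 cluster and 14 had at least 10. After Cbx6 with 24, the next had 19 clusters and 166 reads (chromosome 2, minus strand, 6462920 to 6467026). A stretch on chromosome 11 (minus strand, 97370782 to 97374212) had 14 clusters and 147 reads, and one on chromosome 13 (plus strand, 98020487 to 98022975) had 13 clusters and 279 reads. Next were 3 stretches tied at 11 clusters, on chromosome 3 (minus strand, 146392583 to 146395616, 272 reads), chromosome 9 (minus strand, 75413449 to 75415098, 147 reads) and chromosome 5 (minus strand, 122905949 to 122907023, 120 reads). By reads Cbx6 ranked only 69 of all stretches, and by distinct positions 43.

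The stretches with most reads looked different. That on chromosome 2 (plus strand, 136607185 to 136608146) had 837 reads in 6 clusters over 962 nt. That on chromosome 5 (minus strand, 136384278 to 136385081) had 791 reads in 4 clusters over 804 nt. That on chromosome 8 (plus strand, 56144906 to 56145902) had 755 reads in 7 clusters over 997 nt. They held 108 to 198 reads per cluster, against 5.83 on Cbx6. All 3 lay in the fourth block, in which reads may share a leftmost base, so depths are not alike with those on Cbx6.

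**Figure D3:**
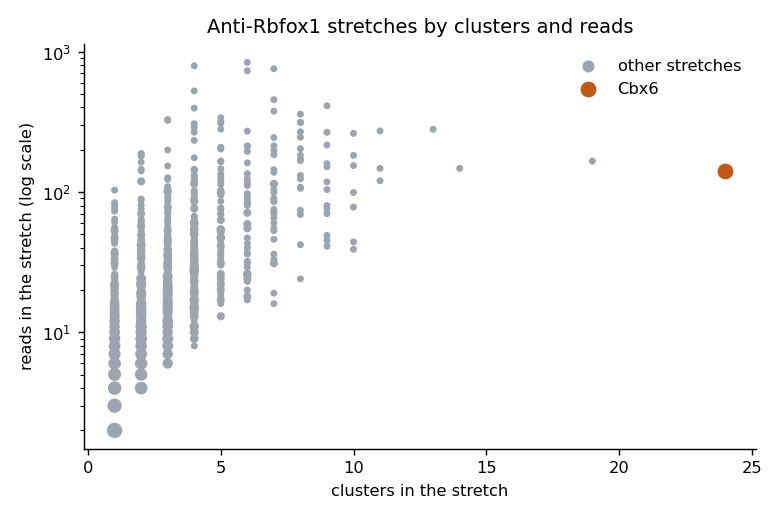
Each anti-Rbfox1 stretch by its number of clusters (horizontal) and of reads (vertical, log scale); a grey point stands for 1 or more stretches with those values and grows with their number. Cbx6, in orange, lies alone at 24 clusters and 140 reads, while the stretches with most reads, 755 to 837, have 4 to 7 clusters.

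Among the 14 stretches of at least 10 clusters, Cbx6 had the second longest span of all, after the 4107 nt of that on chromosome 2. It had 1 cluster per 167 nt, which placed it at rank 5 of 14 by density, where the others ranged from 1 per 87.2 nt to 1 per 280.4 nt. Its median gap of 98 nt lay close to the median of the other 13 stretches, 97.5 nt. The gap depends on how clusters are joined, and on Cbx6 was 33 nt with crosslinks joined within 10 nt and 199 nt within 50 nt. The other stretches' gaps were not computed at those distances.

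The share of reads in the deepest clusters falls with the number of clusters, for which Cbx6 was chosen, so the shares that follow are a description. The deepest cluster held 12.1% of the reads on Cbx6 and between 13.3% and 49.1% in the other 13. The 5 deepest held 47.9% on Cbx6, 44.6% in the stretch of 19 clusters on chromosome 2 and 63.3% to 87.4% in the others. Set against the mean cluster of its own stretch, the deepest cluster was 2.91 times as deep on Cbx6 and between 1.82 and 6.38 times as deep in the others, with a lower ratio in 7 of the 13. By that ratio Cbx6 lay in the middle of these stretches, and by reads per cluster it ranked 12 of 14. Of the other 13, 3 lay in the first block alone and 6 in the fourth alone, where reads may share a leftmost base. The rest had reads in more than 1 block. Depths, and the shares drawn from them, are therefore not measured alike across these stretches.

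**Figure D4:**
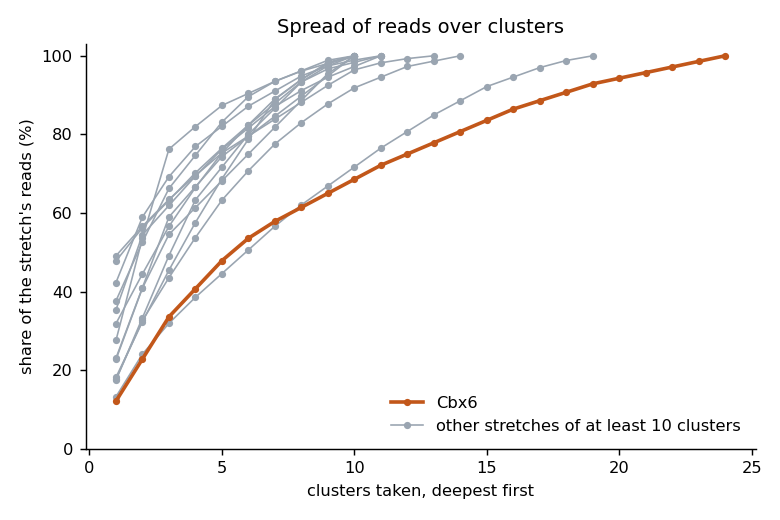
Share of the reads of a stretch (%) held by its deepest clusters, for Cbx6 (orange) and the other 13 stretches of at least 10 clusters (grey). On Cbx6 the deepest cluster held 12.1% and the 5 deepest 47.9% of the reads; 1 grey line, of the stretch with 19 clusters, runs close to it.

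The stretches most like Cbx6 in reads per cluster, among those of at least 10 clusters, were on chromosome 15 (minus strand, 72636037 to 72636908), chromosome 9 (plus strand, 109905452 to 109908047) and chromosome 8 (plus strand, 34525725 to 34527676). They had 4.40, 3.90 and 7.80 reads per cluster. The stretch on chromosome 15 packed its 10 clusters into 872 nt, and that on chromosome 9 spread 10 over 2596 nt. The stretch on chromosome 8 had clusters in the first and the fourth block, so its depth is not alike with that on Cbx6. The others lay in the first block. None of the 3 contained a control read. The same held for Cbx6 and for all others of the 14 stretches except that on chromosome 13 (minus strand, 110844401 to 110847031), with 2. The absence of control reads therefore does not set these stretches apart.

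Against all clusters of its own block, most of them of 2 reads, Cbx6 was high by the depth of its clusters as well as by their number. The first block held 3632 clusters, of which 77.1% had 2 reads and 66 (1.82%) had at least 10. On Cbx6, 5 of 24 clusters (20.8%) had 2 reads and 5 (20.8%) at least 10. By clusters Cbx6 was followed in this block by the stretch of 11 on chromosome 5. That stretch was deeper, with 10.9 reads per cluster against 5.83 on Cbx6, and 6 of its 11 clusters had at least 10 reads. The block's other stretches of at least 10 clusters, on chromosomes 15 and 9, were shallower, with 4.40 and 3.90 reads per cluster. By reads it was second of 3203 stretches, after one with 313 reads in 8 clusters on chromosome 6 (plus strand, 115224525 to 115226569). Its deepest cluster, with 17 reads, ranked 31 among the clusters of the block. On the plus strand the leftmost base fixes the crosslink, so plus-strand reads of this block cannot share a crosslink position. Minus-strand reads, 36.4% of the block, can. Read depths and read ranks are therefore not alike between the strands. By distinct positions, clusters 3 and 12 of Cbx6 held 9 each and would fall below 10. These values are descriptive, since the gene was chosen from these clusters.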

How the data were processed

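The authors deposited 1 file of aligned reads per library, and per the submitters' processing notes used Bowtie and the mm9 build. The sources used here do not give versions, mismatch settings, removal of PCR copies or filters. The files hold positions of reads, with no score or count. In 64820 of 64820 anti-Rbfox1 and 569 of 569 control reads the extra position lay 1 base upstream of the read, and it served as the crosslink position. No reads of the anti-Rbfox1 library shared start, end and strand, so numbers of reads are limited by an earlier collapse.

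Reads, clusters (crosslinks within 20 nt), stretches (clusters within 1000 nt), gaps and lengths were counted in Python 3.11.15 (pandas 2.3.3, numpy 2.4.6; intervals with scipy 1.17.1) and plotted with matplotlib 3.10.9. The counting steps were tested on simulated data. Blocks begin where the order of chromosome names goes back. Clusters with reads in more than 1 block, 3 in all, were left out of block counts. The gene, and the rules for the values given, were chosen with earlier results of these data known. Named were Cbx6, its clusters of at least 10 reads or among its 5 deepest, the 5 stretches with most clusters after it (ties by more reads, with the third of a tie at 11 clusters added), the 3 with most reads and the 3 nearest in reads per cluster. Clusters 9, 15 and 21 of the gene and the stretches of the first block were chosen after their values were seen. Transcript sequences are GENCODE M21 (GRCm38), 1 longest coding transcript per gene, with 12 nt printed on each side of a site. Other Polycomb genes, transcript parts of reads and motifs at crosslinks need an mm9 genome and annotation and were not analysed here.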

Additional observations from a re-analysis of the deposited data

How the results depend on the processing

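Of 32 alternative values, 25 stayed within 1.5 times a count, within an interval or at the same rank, and 7 moved. The 25 do not measure how robust the results are. Some could not move, because all reads of the gene lay in the first block and had different 3′ ends. The clusters of the gene and of its stretch were the same, and under some settings both were counted. With crosslinks joined within 50 nt, Cbx6 had 15 clusters, all in 1 stretch of 15 clusters, and ranked 2, behind a stretch of 16. Its deepest cluster then held 22.9% of its reads. The median gap, 98 nt, was 33 nt with crosslinks joined within 10 nt and 199 nt within 50 nt, which lay inside its wide interval of 33 to 207. Joining over a longer distance merges clusters by construction. Ranked by reads it was 69, by distinct positions 43, and by clusters per 1000 nt, among stretches of at least 10 clusters, 5. It stayed at rank 1 with crosslinks joined within 10 nt, with 34 clusters, of which 6 had 1 position, against 26 in the next stretch. With stretches joined within 500 nt it had 17 clusters against 11, and within 2000 nt 24 against 21. With clusters of at least 3 reads its lead was narrow, 19 against 18. It was also first in the first block alone (24 against 11) and with 1 read kept per leftmost or per rightmost base (24 against 19 in each). In these settings the gene's own 24 clusters could not change, and only the counts of other stretches could. The last settings, and clusters per 1000 nt, were chosen after the data were seen. Counting near-identical reads as 1 left 140 reads, as it must on the minus strand of the first block, where reads share no 3′ end. The motif near crosslinks was not run, for want of an mm9 genome. No paired analysis was possible because there was only 1 library per antibody. The 569 control reads limit any comparison between antibodies.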
